A study of Mus musculus with 13 samples.

Results

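Bloc1s1, Scara3, Hgsnat, Pdgfrb and Sparc are 5 genes whose mRNAs have been described as targets of IRE1-dependent decay in fibroblasts. They were taken by symbol and not by a cut on their values, though with earlier results of these data known. They are 5 of the 22406 symbols in the tables. Ribosome footprints, the pieces of mRNA that translating ribosomes cover, were sequenced in 13 libraries of mouse fibroblasts. The libraries came from mouse embryonic fibroblasts (MEFs) that were WT or knocked out for the kinase PERK (PERK -/-), left untreated or given 1 μM thapsigargin (Tg) for 1, 2, 5 or 8 h, and from the fibroblast line NIH3T3, untreated or given 0.2 μM Tg for 2 or 7 h. NIH3T3 cells carry no PERK knockout. Tg blocks the calcium pump of the endoplasmic reticulum (ER) and so causes ER stress. There was 1 library per condition and hence no replicate, and no test was made. The intervals below have 95% confidence and cover counting error only. No label says how the 2 MEF lines were derived or whether each is 1 clone, so genotype and line cannot be told apart.

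IRE1, encoded by Ern1, is an ER membrane kinase with an RNase domain that unfolded proteins switch on. Its best known cut removes an intron from the Xbp1 mRNA, after which the transcription factor XBP1 raises genes of ER folding and export. The same RNase also cuts other mRNAs, mostly ones read by ribosomes at the ER, whose pieces are then degraded. This is regulated IRE1-dependent decay (RIDD), and Bloc1s1 and Scara3 are often used as its readouts in mouse cells. PERK is a second ER stress sensor, which lowers translation by phosphorylation of eIF2α.

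The Xbp1 mRNA is cut in small loops of 7 bases with the form CNGCAGN, each closed by a stem. The coding sequences of the GENCODE annotation, on the GRCm38 assembly that is the same as mm10, were searched on the sense strand for this loop closed by 4 Watson-Crick pairs. The loop stood in 395 of 20466 coding sequences (1.93%). Bloc1s1 was the only one of the 5 genes with a match, and it is shown beside the 2 loops of Xbp1 so that the shared form can be seen, with the 7 loop bases in capitals.
Bloc1s1 loop: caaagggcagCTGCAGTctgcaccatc
Xbp1 first loop: tctgctgagtCCGCAGCactcagacta
Xbp1 second loop: atgtgcacctCTGCAGCaggtgcaggc
The Bloc1s1 sequence lies at chr10:128920001-128920027 on the minus strand, in exon 4 of 4, and its loop takes up bases 358 to 364 of a coding sequence of 378 bases. The Xbp1 loops lie at chr11:5524266-5524292 and chr11:5524292-5524318 on the plus strand, in exon 4 of 5. Of 1136 coding sequences of a length like that of Bloc1s1, 0.352% held such a loop. A match describes letters and a possible stem, and no cut was measured here.

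The plain hexamer CTGCAG, which reads the same on both strands and can be part of the loop, was found in 67.5% of all coding sequences. Scara3 and Hgsnat, the 2 genes that were lowered furthest, each held it at 2 places with no stem of this form, and these are shown with the hexamer in capitals.
Scara3 first hexamer: gagaccctgaccCTGCAGaagatagtcact
Scara3 second hexamer: catgacttggttCTGCAGgtcatgggccta
Hgsnat first hexamer: catgggtccatcCTGCAGgttaactccacc
Hgsnat second hexamer: atccctggtgtcCTGCAGcggttgggagtg
Those of Scara3 lie at chr14:65931408-65931437 and chr14:65931246-65931275 on the minus strand, both in exon 5 of 6. Those of Hgsnat lie at chr8:25971589-25971618 and chr8:25955740-25955769 on the minus strand, in exons 3 and 11 of 18. Bloc1s1 and Pdgfrb held the hexamer at 3 places each, the loop of Bloc1s1 included, and Sparc at none. Among coding sequences of like length, 81.4% held it for Scara3, 83.9% for Hgsnat and 56.2% for Sparc. Of the 199 expressed MEF genes with a loop, 1.01% to 3.02% were at least 2-fold lower in the WT comparisons, against 2.27% to 4.01% of the 9795 without one. In the PERK -/- comparisons the shares were 3.02% to 7.54% with and 2.61% to 5.69% without a loop.

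The total expected counts, RSEM's estimates of footprints per gene, ran from 2525029 in WT MEFs at 2 h to 14799515 in PERK -/- MEFs at 2 h, so 3 counts were worth 1.19 and 0.203 CPM (counts scaled to a common library total). Eif2ak3, the gene of PERK, was lower in PERK -/- than in WT MEFs at each time, with 8.99 against 14.4 CPM after 1 h and 19.1 against 32.7 CPM after 8 h. By TPM the 2 genotypes overlapped, with 5.21 to 17.2 in PERK -/- and 6.03 to 15.7 in WT MEFs. Its footprints were thus not lost, and which part of the gene the knockout removes was not analysed here. The 10 fibroblast markers, Pdgfrb among them, added up to 4600 to 6851 TPM in the MEFs and 5075 to 8684 TPM in NIH3T3. The highest was Vim in the MEFs (mean 2938 TPM) and S100a4 in NIH3T3 (mean 3729 TPM). Not all were high. In WT MEFs Lum, Dcn and Pdgfra reached at most 0.27, 2.36 and 2.79 TPM. In NIH3T3 Lum and Dcn were at 0 and Col3a1 reached at most 1.67 TPM. The leukocyte, endothelial, epithelial and muscle lists stayed between 0 and 17.7 TPM in all libraries. In the PERK -/- library at 5 h, 73 of 10007 genes had at most 1 count where the other MEF libraries gave at least 20 for its depth, against 1 to 29 genes in the other MEF libraries. CPM and TPM are shares of a library, and footprints reflect both the amount of an mRNA and its load of ribosomes, which cannot be told apart here.

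TPM, which allows for coding length, gave nearly the same order of the 5 genes in every library. Sparc led by far, with 2883 TPM in the WT control, where it was number 26 of all symbols. Bloc1s1 had 74.8 TPM and Pdgfrb 59.9 TPM there, and these neighbours changed places in WT MEFs from 2 h on. Hgsnat had 17.8 and Scara3 4.10 TPM. In NIH3T3, Hgsnat with 42.2 TPM stood above Pdgfrb with 5.36 TPM in the control, and Scara3 had 1.38 TPM. The mean of Scara3 was 1.94 TPM over the MEF libraries and 0.727 TPM over those of NIH3T3, so it alone fell short of the mean of 2 TPM that defined an expressed gene here.

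The untreated lines did not start from the same levels. In the PERK -/- control, Bloc1s1 had 1.51 times, Scara3 1.63 times and Hgsnat 1.59 times the CPM of the WT control, and the intervals of these log2 ratios (0.34 to 0.85, 0.25 to 1.16 and 0.47 to 0.87) lay above 0. Pdgfrb with 1.07 times and Sparc with 0.985 times the WT level had intervals that held 0. Of all expressed genes, 6.04% were at least 2-fold higher and 1.97% at least 2-fold lower in the PERK -/- control. The NIH3T3 control had 1.63 times the Bloc1s1 and 2.58 times the Hgsnat of WT MEFs, but 2.64-fold less Scara3 and 10.6-fold less Pdgfrb. These last ratios compare tables that were quantified separately.

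**Figure D1:**
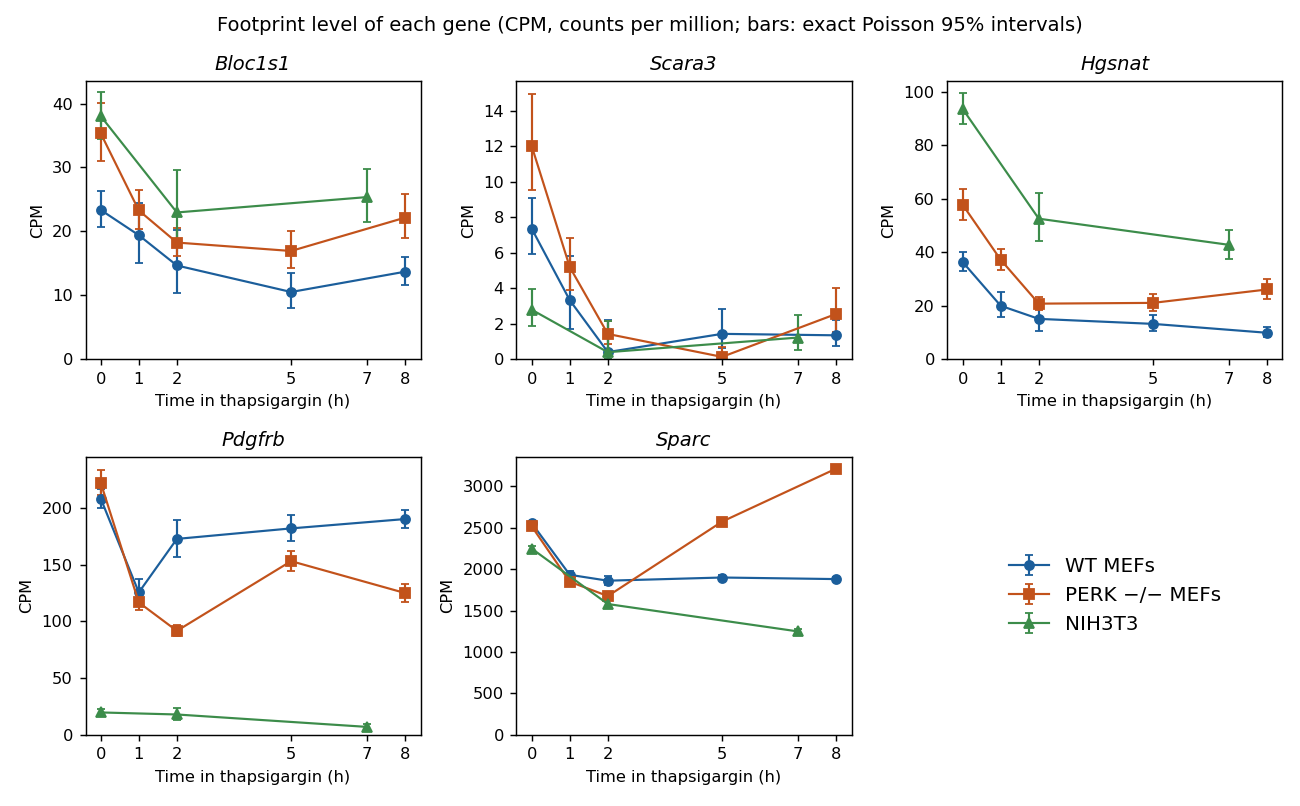
Footprint level of each gene in CPM against time in thapsigargin, with 1 point per library and exact Poisson 95% intervals as bars. Bloc1s1, Scara3, Hgsnat and Pdgfrb were lower than their own control in every treated library. Sparc ended at 3215 CPM in PERK -/- MEFs, above all other libraries.

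Scara3, a scavenger receptor class A protein induced by oxidative stress, was lowered furthest. WT MEFs gave 88 expected counts untreated and 12, 1, 8 and 15 after Tg for 1, 2, 5 and 8 h, the last 4 being 3.32, 0.396, 1.42 and 1.34 CPM against 7.36 CPM. PERK -/- MEFs gave 81, 52, 21, 1 and 19 counts, the last 4 being 5.19, 1.42, 0.124 and 2.55 CPM. NIH3T3 gave 31 counts untreated, then 1 and 7. Every treated library lay below its control, and the lowest level came at 2 h in WT and at 5 h in PERK -/- MEFs. By counts per library total, Scara3 was at least 2-fold lower in all 10 comparisons, and the interval lay below 0 in 9, the exception being NIH3T3 at 7 h with a log2 change of -1.20 (-2.62 to 0.01). At 8 h it was 5.49-fold lower in WT MEFs (3.15 to 10.2) and 4.71-fold lower in PERK -/- MEFs (2.83 to 8.23). Of the expressed genes, 0.211% and 0.748% were as low or lower at that time.

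The deepest points of Scara3 rest on single counts. The log2 change was -4.22 (-9.54 to -1.70) for the WT library at 2 h, -6.59 (-11.92 to -4.08) for PERK -/- at 5 h and -2.84 (-8.19 to -0.26) for NIH3T3 at 2 h, each with 1 count in the treated library. The rise from 5 to 8 h in PERK -/- MEFs, 4.36 on the log2 scale (1.70 to 9.73), rests on the 5 h library, which also stood apart in the number of genes at or near 0. The part of that library in the value was not tested. From 1 to 2 h in the same cells Scara3 went down further by -1.87 (-2.68 to -1.12), a step with 52 and 21 counts. With the study's rule, in which TPM values under 4 are raised to 4, the fall of Scara3 is hidden. The log2 change then read -0.04 in WT MEFs and -0.75 in PERK -/- MEFs at all 4 times, and 0 in NIH3T3.

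Of the 4 other class A scavenger receptors (Msr1, Marco, Scara5 and Colec12), 1 was expressed in MEFs and 2 in NIH3T3. Colec12, a membrane collectin, had 26.2 TPM in untreated WT MEFs and 13.0 TPM after 8 h, just past 2-fold (3.87% of expressed genes passed it downward). Its log2 change of counts was -1.08 there (-1.28 to -0.89) and 0.24 in PERK -/- MEFs at 8 h (0.08 to 0.40). Scara3 lay below Colec12 in each of the 8 MEF comparisons.

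Hgsnat encodes the lysosomal membrane enzyme that acetylates heparan sulfate during its breakdown. WT MEFs had 36.3 CPM of it untreated and 19.9, 15.0, 13.2 and 9.84 CPM after Tg for 1, 2, 5 and 8 h. The PERK -/- values were 57.8, 37.2, 20.7, 21.0 and 26.1 CPM. NIH3T3 had 93.6 CPM untreated, then 52.5 and 42.7 CPM. All treated libraries were below their controls, and the interval lay below 0 in 10 of 10 comparisons. Hgsnat was at least 2-fold lower in 7 of them both by counts and by the TPM rule, the exceptions being 1 h in both genotypes and 2 h in NIH3T3. In WT MEFs each later library was lower than the one before, down to 3.69-fold at 8 h (2.99 to 4.59), although neither the step from 1 to 2 h (-0.41, -1.01 to 0.18) nor that from 5 to 8 h (-0.42, -0.86 to 0.02) exceeded its counting error. Without PERK it was lowest at 2 and 5 h, at 2.78-fold and 2.75-fold below control, and 2.22-fold below at 8 h (1.86 to 2.65). At WT 8 h, 0.709% of expressed genes were as low or lower.

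The other enzymes of heparan sulfate breakdown all had a higher change than Hgsnat in WT MEFs. Of 9 on the list 8 were expressed, and in WT MEFs none was 2-fold lower or higher at any time by the TPM rule. Of all expressed genes 2.29% to 4.01% were lower and 4.33% to 6.45% higher, so none of 8 is near these shares. Hgsnat had a lower log2 change of counts than all 8 at each of the 4 WT times, with -1.88 at 8 h against a list range of -0.86 to 0.68. From 2 h on in PERK -/- MEFs, 1 of the 8 was as low or lower, and at 1 h 4 were. The list median was -0.77 at PERK -/- 2 h by TPM, with the median of all expressed genes at -0.11. Gusb, the β-glucuronidase, went from 46.2 to 25.4 TPM in WT MEFs over 8 h, or by counts -0.86 in log2 (-1.01 to -0.71). Idua, the α-iduronidase, had 70 and 105 counts, a change of 0.68 (0.23 to 1.14).

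**Figure D2:**
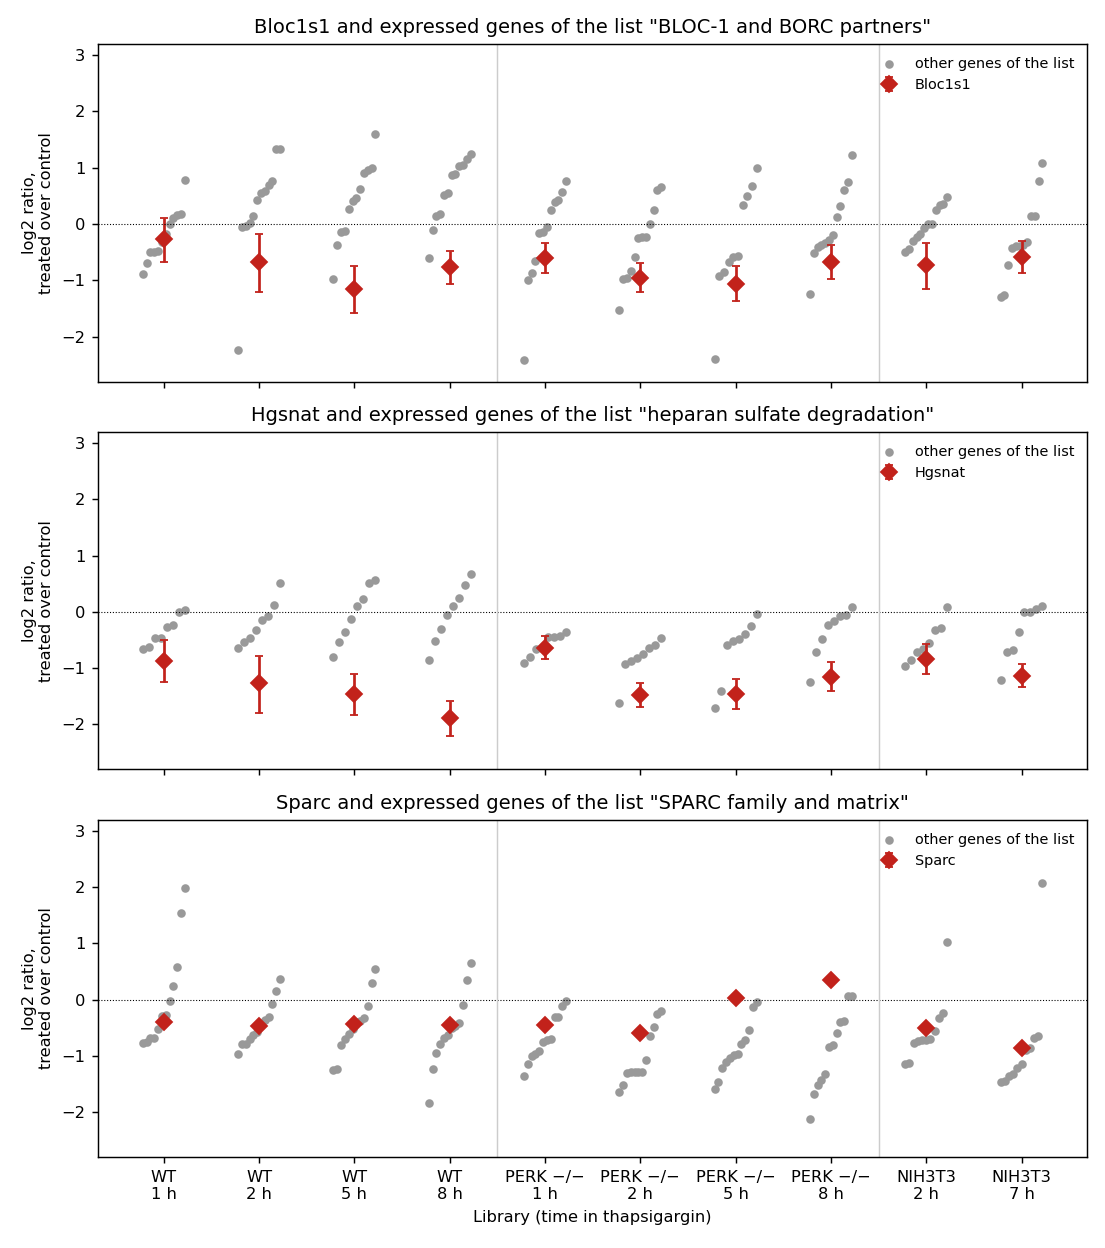
Log2 ratio of counts per library total, treated over control, for Bloc1s1, Hgsnat and Sparc (red diamonds, bars are 95% counting intervals) and for the expressed genes of their lists (grey points). Hgsnat lies below all 8 enzymes at the 4 WT times and Sparc above all 12 matrix genes in PERK -/- MEFs at 5 and 8 h. In the upper panel, Bloc1s3 and Borcs7 had 0 counts in PERK -/- MEFs at 5 h and are not drawn there.

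Bloc1s1 encodes a subunit shared by BLOC-1, a complex of endosome sorting, and BORC, which moves lysosomes. WT MEFs had 23.3 CPM of it untreated and 19.4, 14.7, 10.5 and 13.7 CPM after Tg for 1, 2, 5 and 8 h. PERK -/- MEFs had 35.3, 23.3, 18.2, 16.9 and 22.2 CPM. NIH3T3 had 38.0, 23.0 and 25.4 CPM. All treated libraries were below their controls, and the interval of the change lay below 0 in 9 of 10 comparisons, with WT 1 h the exception (-0.27, -0.67 to 0.11). The lowest level was at 5 h in both genotypes, 2.22-fold below control in WT (1.67 to 3.00) and 2.09-fold in PERK -/- MEFs (1.68 to 2.60). Without the PERK -/- library at 5 h, which stood apart, the furthest PERK -/- fall was 1.94-fold at 2 h (1.62 to 2.31). By counts these were the 2 comparisons in which it passed 2-fold, and by the TPM rule PERK -/- 2 h did so too, with a log2 change of -1.03. The 8 h libraries were higher than the 5 h ones by 0.39 in PERK -/- MEFs (0.05 to 0.73) and by 0.38 in WT MEFs, where the interval held 0 (-0.06 to 0.84). In the annotation Bloc1s1 overlaps Rdh5 (chr10:128913593-128922888, minus strand), and 113 coding bases belong to both. Rdh5 had 0 to 5 counts in the MEF libraries and 0 to 11 in NIH3T3, against 37 or more of Bloc1s1, and how reads from the shared bases were divided is not known, so the split between them is uncertain.

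The partners of Bloc1s1 lay beside it at WT 1 h and mostly above it at the later WT times. All 12 other BLOC-1 and BORC genes of the list were expressed, and by the TPM rule their median log2 change in WT MEFs ran from -0.07 at 1 h to 0.59 at 8 h. By counts 6 of the 12 were as low as Bloc1s1 or lower at WT 1 h, where the list median was -0.25 and Bloc1s1 stood at -0.27, and 1 was at WT 2 h. Bloc1s1 had a lower change of counts than all 12 at WT 5 h and 8 h and at NIH3T3 2 h. At WT 8 h it stood at -0.77 and the list ran from -0.61 to 1.24. Without PERK 1 to 4 of the 12 were as low or lower, and the list median was below 0 at all 4 times, between -0.62 and -0.14 by TPM. Bloc1s4, a BLOC-1 subunit, went from 13.6 to 28.1 TPM in WT MEFs over 8 h, or by counts 1.05 in log2 (0.69 to 1.42). Its PERK -/- change was -0.41 (-1.02 to 0.19). Dtnbp1, dysbindin, had 0.54 (0.34 to 0.75) at WT 8 h and -0.33 (-0.56 to -0.10) at PERK -/- 8 h.

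As a share of the library, Pdgfrb, the receptor tyrosine kinase for PDGF-B and PDGF-D, was lowered early and then came back in WT MEFs. These had 208 CPM of it untreated, 126 CPM after 1 h of Tg and then 173, 182 and 190 CPM. PERK -/- MEFs had 222 CPM untreated and 117, 91.6, 153 and 125 CPM. NIH3T3 had 19.7, 17.9 and 6.95 CPM, from 219, 46 and 40 counts. Every treated library was below its control, and the interval lay below 0 in 9 of 10 comparisons, NIH3T3 at 2 h being the exception (-0.14, -0.63 to 0.33). The WT fall was 1.66-fold after 1 h (1.5 to 1.84) but 1.09-fold after 8 h (1.03 to 1.16), where 35.0% of expressed genes were as low or lower. The PERK -/- fall was 2.42-fold after 2 h (2.25 to 2.61) and 1.78-fold after 8 h (1.64 to 1.93). Between 1 and 2 h Pdgfrb changed by 0.46 in WT MEFs on the log2 scale (0.27 to 0.65), and by -0.35 without PERK (-0.46 to -0.23). The TPM rule put PERK -/- 1 h (-1.03) and 2 h (-1.44) past 2-fold. In NIH3T3 at 7 h Pdgfrb was 2.83-fold lower by counts (2.02 to 4.08), whereas the TPM rule gave -0.42 since 2.27 TPM was raised to the floor.

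The PDGF list held the partner receptor, the 4 ligands and Pdgfrl. All 6 were expressed in MEFs and 4 in NIH3T3. By TPM the list median lay between -0.03 and 0 in WT MEFs and between -0.50 and -0.05 in PERK -/- MEFs. In each MEF comparison 0 or 1 of the 6 was at least 2-fold lower, beside 2.29% to 5.78% of all expressed genes. At least 2-fold higher was 1 of the 6 at PERK -/- 8 h (3.28%) and none in the other MEF comparisons. Pdgfd, a ligand of Pdgfrb, went from 140 to 46 counts in WT MEFs over 8 h, or -1.51 in log2 per library total (-2.02 to -1.02), while its PERK -/- change was 0.15 (-0.12 to 0.42). Pdgfa, a ligand of the partner receptor, had 213 counts in untreated WT MEFs and 164 after 8 h, with an interval that held 0 (-0.58 to 0.02). In PERK -/- MEFs at 8 h Pdgfa was the list gene at least 2-fold lower by TPM. By counts Pdgfrb was lower than all 6 at PERK -/- 2 h, with -1.28 against -0.89 for the lowest list gene. It was just below all 6 at WT 1 h (-0.73 against -0.72) and PERK -/- 5 h (-0.54 against -0.49). In these last 2 the lowest list gene lay within the counting interval of Pdgfrb.

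Sparc, a secreted glycoprotein that binds collagen and calcium, was by far the most read of the 5, and in WT MEFs its treated libraries lay close together below the control. WT MEFs had 2556 CPM of it untreated and 1932, 1861, 1899 and 1880 CPM after Tg for 1, 2, 5 and 8 h. PERK -/- MEFs had 2518, 1849, 1676, 2574 and 3215 CPM. NIH3T3 had 2249, 1579 and 1248 CPM. Sparc was thus 1.36-fold lower at WT 8 h (1.34 to 1.38), while at PERK -/- 8 h it was above control by 0.35 on the log2 scale (0.32 to 0.38). At PERK -/- 5 h the change was 0.03 by counts, with an interval just above 0, and -0.0034 by TPM, so its sign depends on the scale. No comparison reached 2-fold, the furthest being NIH3T3 at 7 h with 1.80-fold (1.76 to 1.85). These intervals are narrow because of the many counts, and the spread between cultures was not measured.

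Many matrix genes were well below their control in PERK -/- MEFs, also at 5 and 8 h when Sparc was not. Of 15 genes of the SPARC family and the matrix 12 were expressed in MEFs and 11 in NIH3T3. By the TPM rule 7 of the 12 were at least 2-fold lower at PERK -/- 2 h, 6 at 5 h and 5 at 8 h, beside 5.78%, 4.77% and 2.73% of all expressed genes. By this rule none was in WT MEFs at any time, where 2.29% to 4.01% of expressed genes were. By counts, which have no floor, the lowest list gene passed 2-fold at WT 5 h (-1.25) and 8 h (-1.84). NIH3T3 cells, which have PERK, also had 2 of 11 matrix genes lower at 2 h (3.76% of expressed genes) and 6 at 7 h (8.06%), with list medians of -0.84 and -1.13. Sparc had a higher change of counts than all 12 at PERK -/- 5 and 8 h, with 0.35 at 8 h against a list range of -2.12 to 0.07. In WT MEFs at 2, 5 and 8 h it lay in the middle, with 6, 6 and 8 of the 12 as low or lower. Fbn1, fibrillin, went from 197 to 45.1 TPM over 8 h without PERK and from 117 to 60.1 TPM in WT MEFs. Smoc2, a matricellular relative of Sparc, went from 111 to 29 counts in WT MEFs over 8 h (-1.84, -2.48 to -1.24), and changed by -0.80 (-0.94 to -0.66) in PERK -/- MEFs. At WT 1 h, though, Smoc2 was at least 2-fold higher by the TPM rule (4.33% of expressed genes). No other list gene was at least 2-fold higher in any comparison (0.623% to 7.01%).

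**Figure D3:**
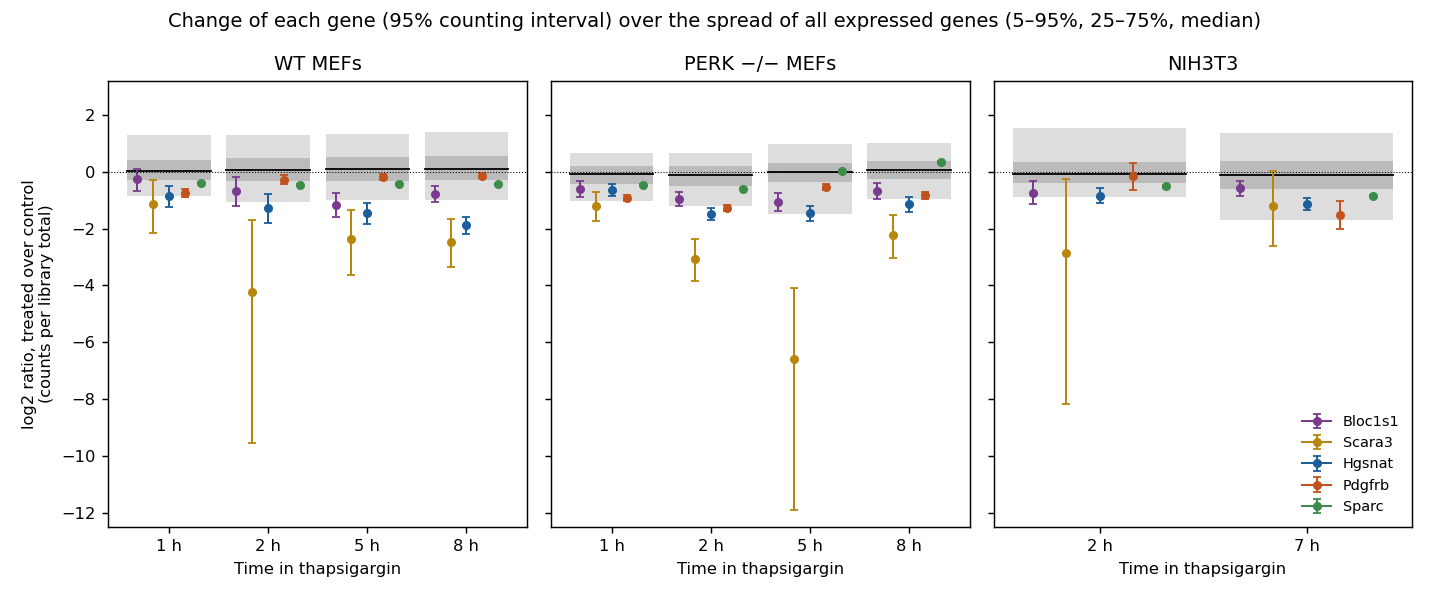
Log2 ratio of counts per library total, treated over control, of each gene with its 95% counting interval, over the spread of all expressed genes in the same comparison (light grey 5 to 95%, dark grey 25 to 75%, black line the median). Scara3 lies lowest in 9 of 10 comparisons, NIH3T3 at 7 h excepted, and Hgsnat lies below the light band at all 4 WT times.

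By the TPM rule 0 to 3 of the 5 genes passed 2-fold in a comparison. Of the 10432 expressed genes 2.29% were at least 2-fold lower in WT MEFs at 1 h, and none of the 5. The count was 1 at 2 h (4.01%), then 2 (3.55%) and 1 (3.87%). The gene was Hgsnat at each of these times, joined by Bloc1s1 at 5 h. Without PERK the count was 1 at 1 h (3.38%), then 3 (5.78%), 2 (4.77%) and 1 (2.73%) at the later times. These were Pdgfrb at 1 h, Bloc1s1, Hgsnat and Pdgfrb at 2 h, Bloc1s1 and Hgsnat at 5 h and Hgsnat at 8 h. In NIH3T3 none was lower at 2 h (3.76% of 10117 expressed genes) and 1, Hgsnat, at 7 h (8.06%). None of the 5 was at least 2-fold higher in any comparison, where 4.33%, 5.66%, 5.86% and 6.45% of expressed genes were in WT MEFs, 0.719%, 0.623%, 3.26% and 3.28% in PERK -/- MEFs, and 5.76% and 7.01% in NIH3T3.

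Counts per library total, which have no floor, took in Scara3 in all 10 comparisons, while Pdgfrb at PERK -/- 1 h and Bloc1s1 at PERK -/- 2 h came just short of 2-fold. At least 2-fold lower were then 1, 2, 3 and 2 of the 5 in the WT comparisons from 1 to 8 h, beside 3.4%, 5.93%, 4.83% and 4.85% of expressed genes. The PERK -/- counts were 1, 3, 3 and 2, beside 5.5%, 7.91%, 8.79% and 4.52%. In NIH3T3 there were 1 at 2 h and 3 at 7 h, beside 3.48% and 13.9%. Again none was 2-fold higher, beside 8.32%, 8.88%, 9.53% and 10.4% of expressed genes in WT MEFs, 2.03%, 1.93%, 4.84% and 5.24% in PERK -/- MEFs, and 9.94% and 8.69% in NIH3T3. The median log2 change of the 5 genes by counts was -0.73, -0.67, -1.15 and -0.77 in WT MEFs and -0.64, -1.28, -1.06 and -0.83 in PERK -/- MEFs, while the median of all expressed genes stayed between -0.11 and 0.10 in these comparisons. With 5 genes a single one moves these shares by a lot, and Scara3 is not among the expressed genes that form the background.

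The change in the share of a library was compared between the genotypes at matched times, as the log2 change in WT minus that in PERK -/- MEFs. For Bloc1s1 this difference, in the order of the times, was 0.33 (-0.12 to 0.79), 0.28 (-0.27 to 0.84), -0.09 (-0.60 to 0.42) and -0.10 (-0.50 to 0.31). All 4 intervals held 0, and between them they leave room for differences from -0.60 to 0.84. Hgsnat had intervals that held 0 at 1, 2 and 5 h, and at 8 h the fall was larger in WT MEFs, by -0.74 (-1.13 to -0.34). For Scara3 the intervals held 0 at 1, 2 and 8 h, with 0.06 (-0.94 to 1.07), -1.13 (-4.06 to 1.79) and -0.22 (-1.29 to 0.85). At 5 h it was 4.22 (1.19 to 7.25), which rests on the single count in the PERK -/- library.

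By counts per library total, Pdgfrb and Sparc differed between the genotypes beyond counting error at most times. These are shares of a library and do not show absolute synthesis. The paper calls its footprint levels relative, since fewer ribosomes translate in WT MEFs under ER stress. The change of Pdgfrb was higher in WT MEFs at each time, by 0.20 (0.02 to 0.38), 1.01 (0.83 to 1.19), 0.34 (0.19 to 0.49) and 0.70 (0.56 to 0.84). Sparc differed by 0.04 at 1 h, where the interval held 0, and by 0.13 (0.08 to 0.18) at 2 h. At 5 and 8 h its change was lower in WT MEFs, by -0.46 (-0.50 to -0.42) and -0.80 (-0.83 to -0.76). The Pdgfrb difference at 1 h and the Sparc difference at 2 h depended on the scaling. With TMM factors, which scale the libraries in another way, Pdgfrb at 1 h changed by -0.82 in both genotypes. Sparc at 2 h then changed by -0.54 in WT and -0.44 in PERK -/- MEFs. At 8 h Hgsnat had 26.1 CPM in PERK -/- and 9.84 CPM in WT MEFs, a gap that holds both the higher PERK -/- control and the larger WT fall. The libraries of each genotype share 1 control, so the 4 times of a gene are not independent.

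**Figure D4:**
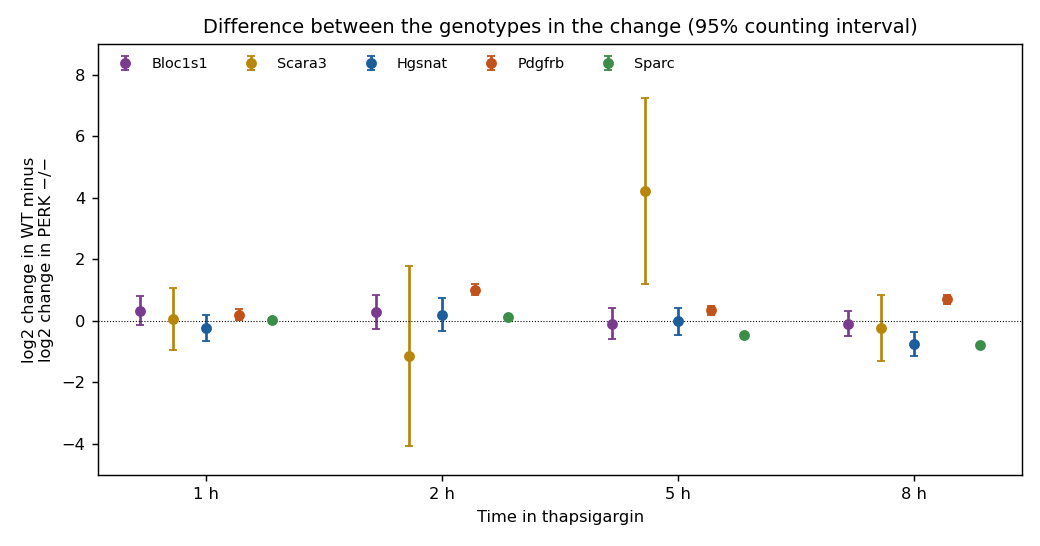
Log2 change of counts per library total in WT MEFs minus that in PERK -/- MEFs at matched times, with 95% counting intervals. The intervals of Bloc1s1 hold 0 at all 4 times, Pdgfrb lies above 0 at each, and Sparc lies at -0.46 and -0.80 at 5 and 8 h.

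Xbp1, the main substrate of IRE1, was read more after Tg in both genotypes. It had 29.2 TPM in untreated WT MEFs, then 83.5, 189.8, 179.6 and 174 TPM. PERK -/- MEFs had 34.5, 69.5, 76.7, 97.7 and 103 TPM, and NIH3T3 had 104, 290 and 438 TPM. The change was larger in WT MEFs at each time, by 1.48 after 2 h (1.21 to 1.76) and 1.01 after 8 h (0.75 to 1.26). Splicing of Xbp1 cannot be read from gene totals. Ern1, IRE1 itself, had 5.08 TPM in the WT control and 7.86 TPM at 8 h, and in PERK -/- MEFs 4.64, 4.07, 3.38, 5.77 and 6.86 TPM.

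Of 14 IRE1 arm genes 12 were expressed. At least 2-fold higher were 2 or 3 in each WT comparison (4.33% to 6.45% of all expressed genes) and 2 to 4 in each PERK -/- comparison (0.623% to 3.28%). Xbp1 itself was among them each time. None was 2-fold lower in these comparisons (2.29% to 5.78% of all expressed genes). The list median ran from 0.14 to 0.66 in WT and from -0.01 to 0.53 in PERK -/- MEFs. Hspa5, the ER chaperone BiP, had 1357 TPM in the WT control and 7149 TPM at 8 h, and in PERK -/- MEFs 1646 and 4376 TPM. All 18 XBP1-responsive genes were expressed, and some of them are also on the IRE1 arm list. At least 2-fold higher were 7 at WT 8 h, beside 6.45% of all expressed genes, and 5 at PERK -/- 8 h, beside 3.28%. Their median log2 change by TPM was 0.83 at WT 8 h and 0.85 at PERK -/- 8 h, with 4 and 0 of the 18 below 0. Sdf2l1, a component of ER chaperone complexes, went from 23.9 to 279 TPM in WT MEFs, and from 38.9 to 153 TPM in PERK -/- MEFs. Syvn1, an ER ubiquitin ligase, went from 26.6 to 162 TPM in WT and from 50.5 to 116 TPM in PERK -/- MEFs at 8 h.

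Other genes named in the field as RIDD substrates were also counted, Ern1 among them. Of 16 listed 13 were expressed in MEFs, and by the TPM rule 0 or 1 was at least 2-fold lower in each WT comparison (2.29% to 4.01% of all expressed genes) and 0 to 2 in each PERK -/- comparison (2.73% to 5.78%). With so few genes these counts are near the shares over all genes. At least 2-fold higher were 1 or 2 in each WT comparison (4.33% to 6.45% of all expressed genes) and 0 to 2 in each PERK -/- comparison (0.623% to 3.28%). Their median log2 change ran from 0 to 0.14 in WT MEFs and from -0.33 to 0.23 in PERK -/- MEFs. In NIH3T3 2 of 12 were lower at 2 h (3.76% of expressed genes) and 3 at 7 h (8.06%), with medians of -0.54 and -0.35. At least 2-fold higher there were 2 at 2 h (5.76%) and 2 at 7 h (7.01%). Pmp22, a membrane protein of myelin, went from 66.1 to 156 TPM in WT MEFs over 8 h and from 102 to 33.3 TPM in NIH3T3 over 7 h. Per1, a clock gene, went from 121 to 399 counts at WT 8 h, a log2 change of 1.82 (1.52 to 2.12).

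GC content moved with the comparison and is given because 4 of the 5 genes lie above the median of 52.7% GC, at 55.4 to 56.5%, with Hgsnat at 52.2%. Expressed genes within 2 percentage points of Bloc1s1 had a median log2 change by TPM of 0.21 at WT 8 h and -0.30 at PERK -/- 2 h. Subtracting it took Bloc1s1 from -0.77 to -0.98 in the first and from -1.03 to -0.73 in the second. The part of GC content in the changes was not tested.

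The genes whose changes were most like those of each gene were sought by Pearson's r over the 10 log2 TPM ratios, among 5102 or 5103 other genes with a mean of at least 16 TPM in both tables, a level that Bloc1s1 and Sparc reached themselves. The 10 points share 3 control libraries and are not independent. Bloc1s1 was most like Ubap1 (0.853), Gprc5a (0.838) and Atl2 (0.793). Hgsnat was most like Leprot (0.842), Angptl2 (0.811) and Sdc4 (0.806). Pdgfrb was most like Rbm5 (0.952), Hist1h3b (0.942) and Atg4b (0.932), and Sparc most like Tmem97 (0.974), Prdx4 (0.963) and Lpcat3 (0.960). For Scara3 the floor of 4 TPM set the pattern, so no gene is named. This floor also raised Pdgfrb at NIH3T3 7 h, where its ratio was -0.42 by TPM and -1.50 by counts. Among the 5 genes r was taken over the 10 log2 ratios of counts per library total instead. It was 0.60 between Bloc1s1 and Hgsnat. It lay between -0.26 and 0.21 for each of these with Pdgfrb or Sparc and for Pdgfrb with Sparc. Scara3, whose deepest points rest on single counts, had 0.59 with Bloc1s1, 0.43 with Hgsnat, -0.34 with Pdgfrb and -0.38 with Sparc.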

How the data were processed

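Ribosome footprints were measured in 13 libraries, 1 per condition, grouped by the genotype, treatment and time in the labels. Per the study's methods, only footprints 22 to 34 nt long were used, reads of rRNA and tRNA were filtered out (STAR), and the remainder was mapped by Bowtie2 to mm10 RefSeq coding sequences without their first and last 30 nt. RSEM then estimated gene levels. Versions are not given in the sources used here. The deposited expected counts are whole numbers with no scaling. TPM values were scaled by the authors within each library.

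From these, every treated library was set against the untreated one of its line, as the log2 ratio of TPM with values under 4 raised to 4 (the study's rule), and as the log2 ratio of expected counts per library total with an exact conditional (Clopper-Pearson) 95% interval. CPM had exact Poisson intervals. The difference between genotypes had a normal-approximation interval from the 4 counts. Expressed meant a mean of at least 2 TPM. Named genes were the 5 members, Ern1, Xbp1, Eif2ak3, in each list the 2 with the largest change at WT 8 h among those with at least 100 counts in one library, and the 3 genes most alike to a member. Bloc1s3, Borcs7 and Rdh5 were named after their values were seen. The members and the lists were chosen with earlier results of these data known. The lists came from general knowledge. Alternatives were other scalings (TMM and DESeq2 size factors), other floors and thresholds, thinned counts and, added after seeing the data, a GC correction. The steps were tested on simulated data. Python 3.11.15 (numpy 2.4.6, pandas 2.3.3, scipy 1.17.1, matplotlib 3.10.9) and R 4.3.3 (edgeR 4.0.16, DESeq2 1.42.0) were used.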

Additional observations from a re-analysis of the deposited data

How the results depend on the processing

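No paired analysis was possible because each condition is 1 library without a replicate number, and there was no replicate to leave out. No median of the 5 genes changed sign under the settings below, and Sparc at PERK -/- 5 h was -0.0034 by the TPM rule and 0.03 by counts. Depth limits Scara3 most, which had 1 count in 3 treated libraries. Bloc1s1, Hgsnat and Pdgfrb were below their control in all 10 comparisons under every setting tried, while Scara3 was so in 8 to 10 and Sparc in 8 or 9. The values that moved are given here against the TPM rule with a floor of 4, and unless a value shows it the cause was not tested. A setting without the floor lets Scara3 count.

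With counts per library total, 1, 2 and 2 of the 5 genes were at least 2-fold lower at WT 1, 2 and 8 h, 2 at PERK -/- 8 h, and 1 and 3 in NIH3T3. Their median was -0.73, -0.67, -1.15 and -0.77 in WT MEFs and -0.73 and -1.13 in NIH3T3. Lower were 5.5%, 8.79% and 4.52% of expressed genes at PERK -/- 1, 5 and 8 h and 13.9% at NIH3T3 7 h. Higher were 8.32%, 8.88%, 9.53% and 10.4% in WT MEFs, 2.03%, 1.93% and 5.24% at PERK -/- 1, 2 and 8 h and 9.94% at NIH3T3 2 h. TMM factors (edgeR) gave the same numbers of the 5 genes, 1, 2, 2, 2, 1 and 3, with medians of -0.82, -0.74, -1.23 and -0.87 (WT) and -0.71 and -1.03 (NIH3T3). Lower were 4.03%, 6.29%, 5.8% and 5.99% in WT MEFs and 8.95% and 5.28% at PERK -/- 5 and 8 h. Higher were 7.15% at WT 1 h, 2.46% and 2.63% at PERK -/- 1 and 2 h and 10.2% at NIH3T3 2 h. DESeq2 size factors gave 1, 2, 2, 2, 1 and 2 genes, with medians of -0.77, -0.72, -1.23 and -0.88 (WT) and -0.68 and -0.996 (NIH3T3). Lower were 5.8% and 6.22% at WT 5 and 8 h and 8.84% and 5.2% at PERK -/- 5 and 8 h. Higher were 7.86% at WT 1 h, 2.35% and 2.43% at PERK -/- 1 and 2 h, and 10.7% and 11% in NIH3T3.

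These scalings also moved the share of lower among all 2-fold calls. At PERK -/- 1 h it was 82.5% by the TPM rule and 73%, 63.4% and 65.8% by counts, TMM and DESeq2, at PERK -/- 2 h 90.3% against 80.4%, 68% and 71.5%, at PERK -/- 8 h 45.4% against 46.3%, 56.5% and 55.3%, and at NIH3T3 2 h 39.5% against 25.9%, 23.3% and 20.3%. The median of all expressed genes at PERK -/- 2 h was -0.11 by the TPM rule and 0.03 with TMM.

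A floor of 1 TPM gave 1, 2 and 2 genes at WT 1, 2 and 8 h, 2 and 2 at PERK -/- 1 and 8 h and 2 at NIH3T3 7 h, with medians of -0.74, -0.68, -1.15 and -0.77 (WT) and -1.44 (PERK -/- 2 h). A pseudocount of 1 gave 2 and 2 at WT 2 and 8 h, 2 and 2 at PERK -/- 1 and 8 h and 1 at NIH3T3 2 h, with medians of -0.73, -0.67, -1.13 and -0.76 (WT), -1.40 (PERK -/- 2 h) and -0.84 (NIH3T3 2 h). Counts thinned to 1 depth gave 1, 2 and 3 at WT 1, 2 and 8 h, 0 at PERK -/- 1 h and 2 and 3 in NIH3T3, with medians of -0.75, -0.59, -1.21 and -1.04 (WT) and -0.91 and -1.22 (NIH3T3). With the median of genes of like GC content subtracted, a setting chosen after seeing the data, medians were -0.46, -0.58, -0.60 and -0.65 (WT), -0.73 (PERK -/- 2 h) and -0.44 (NIH3T3 2 h), and 0 genes passed 2-fold at PERK -/- 1 h. A threshold of 1.5-fold gave 2, 2 and 2 genes at WT 1, 2 and 8 h, 4, 5 and 4 at PERK -/- 1, 2 and 8 h and 3 and 3 in NIH3T3. A threshold of 3-fold gave 0 at WT 2 and 5 h, at all PERK -/- times and at NIH3T3 7 h.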
